A study of Mus musculus with 6 samples.

Results

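*Gpt*, *Gpt2*, *Got1* and *Got2* encode the alanine and aspartate aminotransferases, the enzymes that clinical chemistry knows as ALT and AST. They were chosen by name and found by their Ensembl identifiers, as 4 of the 49671 mouse genes in the table of liver read counts. Liver RNA was sequenced from 6 male C57BL/6J mice. The 3 mice labelled WT were read as SHMT2 fl/fl controls, which carry the floxed *Shmt2* gene without Cre. The 3 mice labelled KO were read as SHMT2 HKO mice, which carry the same floxed gene with Albumin-Cre, so that *Shmt2* is deleted in hepatocytes and not by design in other liver cells. Both groups were weaned onto chow. At an age of 4 weeks they were moved to the AMLN diet, a steatosis-inducing feed with high fat, cholesterol and fructose contents, and stayed on it for 18 weeks. No chow-fed livers were among these libraries, so every difference given here is one between genotypes on this diet. The study also measured ALT activity in the circulation of its mice, which is not analysed here; the counts measure transcripts in whole liver and not enzyme in blood.

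Alanine aminotransferase moves the amino group of alanine onto 2-oxoglutarate, giving pyruvate and glutamate, and in this way feeds amino acid carbon into gluconeogenesis. Aspartate aminotransferase makes oxaloacetate and glutamate from aspartate and 2-oxoglutarate, supplies aspartate to the urea cycle, and works on both sides of the mitochondrial membrane in the malate-aspartate shuttle, which carries reducing equivalents from cytosolic NADH into the mitochondrion. Each enzyme has a cytosolic form (*Gpt*, *Got1*) and a mitochondrial form (*Gpt2*, *Got2*), all need pyridoxal phosphate, and ALT and AST leak into blood when hepatocytes are damaged.

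In GRCm38, *Gpt* (ENSMUSG00000022546) lies at chr15:76695716-76699686 on the plus strand, and its longest coding transcript has 11 exons and 1792 bases. *Gpt2* (ENSMUSG00000031700) lies at chr8:85492576-85527560 on the plus strand, with 12 exons and 3639 bases. *Got1* (ENSMUSG00000025190) lies at chr19:43499752-43524605 on the minus strand, with 9 exons and 2058 bases. *Got2* (ENSMUSG00000031672) lies at chr8:95864134-95888547 on the minus strand, with 10 exons and 2530 bases. Reads of the paired genes could be told apart, because no run of 50 bases of the *Gpt* transcript occurs in *Gpt2*, and none of *Got1* occurs in *Got2*. Where the transcripts could be aligned, *Gpt* and *Gpt2* were identical at 72.6% of 1344 positions, and *Got1* and *Got2* at 71.4% of 525. *Got2* is less certain, since 801 of its 2481 runs of 50 bases (32.3%) also occur in the processed pseudogene *Got2-ps1* on chromosome 5, and only uniquely placed reads were counted. The study's methods give paired reads longer than 50 bases, and the 1293 aligned bases were 99.1% and not fully identical. The share of runs is therefore not a share of reads lost, which was not measured. *Got2-ps1* itself had 6 to 13 counts per mouse. *Gm45760*, an annotation on the opposite strand whose class (TEC) marks a transcript still to be verified by experiment, overlaps 1782 bases of *Got2* and had 2 to 8 counts per mouse.

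The start regions of *Got1* and *Got2* are shown because the ratio between these 2 genes is among the contrasts described below. Promoters, taken from RefSeq (GRCm38.p6) as the 250 bases before and 50 bases after the annotated start, were matched for 3 of the 4 genes, all but *Gpt*. For *Got1* and *Gpt2* that start is the 5′ end of the gene span given above. For *Got2* it lies inside the span, downstream of its 5′ end, so the *Got2* window depends on the start chosen. The *Got1* window is chr19:43524556-43524855 and the *Got2* window chr8:95888352-95888651, both on the minus strand and written 5′ to 3′, with capitals marking CCAAT or its complement ATTGG, the box bound by the factor NF-Y.
*Got1*: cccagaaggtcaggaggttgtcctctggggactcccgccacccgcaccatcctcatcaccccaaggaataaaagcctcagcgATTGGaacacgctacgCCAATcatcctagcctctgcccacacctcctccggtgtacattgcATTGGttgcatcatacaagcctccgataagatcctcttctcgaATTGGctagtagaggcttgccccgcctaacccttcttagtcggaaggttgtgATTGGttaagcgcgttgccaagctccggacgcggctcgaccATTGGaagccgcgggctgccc
*Got2*: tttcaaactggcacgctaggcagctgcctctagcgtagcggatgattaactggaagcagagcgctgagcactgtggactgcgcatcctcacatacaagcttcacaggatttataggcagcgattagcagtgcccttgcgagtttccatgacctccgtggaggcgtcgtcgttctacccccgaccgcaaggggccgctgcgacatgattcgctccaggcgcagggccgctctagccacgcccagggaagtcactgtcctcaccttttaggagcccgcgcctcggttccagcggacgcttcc
The *Got1* window held 6 CCAAT boxes, counted on both strands, and the *Got2* and *Gpt2* windows held 0. At least 1 box was found in 37.4% of the 32851 promoters in the RefSeq table, and 6 or more in 26 of them (0.079%), a limit set after the *Got1* count was known. The motifs that follow were likewise counted on both strands. *Got2* held 1 TATAAA, which reads TTTATA on the strand printed and was found in 13.6% of promoters. *Gpt2* (chr8:85492326-85492625, plus strand) held 2 GGGCGG, the letters of the GC box, found in 35.7%. TGATGNAAN, the letters of the element read by ATF4 and C/EBP, occurred once in the *Got1* window, where it shares 1 base with a CCAAT box, and in 3.95% of promoters. CACGTG (7.15% of promoters), TGACGTCA (1.79%) and the DR1 element of nuclear receptors (0.04%) were not found in the 3 windows. These matches are descriptions of letters and not of bound factors.

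Counts on genes ranged from 23090837 to 34089722 per library, so that 3 counts, taken as the detection floor, came to 0.0734 to 0.152 CPM (counts scaled to one library size with TMM factors, which set most genes of the libraries to a common level). *Shmt2*, the deleted gene, had 94.6, 109 and 93.9 CPM in the 3 WT mice and 24.9, 28.3 and 19.3 CPM in the 3 KO mice, a log2 fold change of -2.04 (SE 0.16, adjusted p = 0.000639, edgeR). Every KO library was thus below every WT library for *Shmt2*, as the labels state. The main axis of variation (64.8% of the variance of log2 CPM) separated the genotypes, and the next (19.4%) set KO mouse 1 apart from KO mice 2 and 3. TMM factors were 1.13 to 1.21 in WT and 0.802 to 0.984 in KO libraries. The synthetic ERCC RNAs held 1.47%, 1.84% and 1.42% of counts in WT mice 1 to 3. In KO mice 1 to 3 they held 2.75%, 2.31% and 1.35%, so that KO mouse 3 was below all WT mice. Of 16089 genes tested, 4663 passed an adjusted p of 0.05 (29.0%), of which 2012 were higher in KO (12.5% of tested) and 2651 lower (16.5%).

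Of the 4 aminotransferase genes, 1 passed the test. *Got2*, the mitochondrial aspartate aminotransferase, was 1.61-fold higher in KO livers, whereas *Gpt*, *Gpt2* and *Got1* did not pass. All 4 were abundant and entered the fit, so none had been selected by a filter on low values. A count of 1 in 4 is close to the 29.0% of all genes that were called, and is therefore no result about the family. It is likewise below the 46.9% of genes whose values did not overlap between the genotypes (21.9% with KO above WT, 25.0% with KO below). In whole liver, more or fewer cells of a type and more or less RNA per cell cannot be told apart.

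*Gpt*, the cytosolic alanine aminotransferase, had 282, 363 and 326 CPM in WT mice 1 to 3 and 394, 517 and 342 CPM in KO mice 1 to 3. KO mice 1 and 2 were above all WT mice, but KO mouse 3 was below WT mouse 2, so the groups overlapped. The means were 324 ± 40.6 (SD, n = 3) and 417 ± 89.7 CPM (SD, n = 3), and the log2 fold change of 0.37 (SE 0.19, 95% interval -0.07 to 0.80) did not pass (adjusted p = 0.184, edgeR). On the linear scale the interval ran from 0.953-fold to 1.74-fold.

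*Gpt2*, the mitochondrial form, had a larger SD in KO than in WT mice, as had *Gpt*, *Got1* and *Got2*. Differences in spread were not tested. WT mice 1 to 3 had 562, 550 and 577 CPM, and KO mice 1 to 3 had 397, 753 and 738 CPM. The 3 WT mice were nearly level, while KO mouse 1 was below all of them and KO mice 2 and 3 were above all of them. The highest value was 1.05 times the lowest in WT and 1.90 times in KO. The means were 563 ± 13.4 and 629 ± 202 CPM (SD, n = 3 each), with a log2 fold change of 0.16 (SE 0.24, 95% interval -0.40 to 0.72, adjusted p = 0.654, edgeR). Without KO mouse 1, the mouse that stood apart on the next axis of variation, the log2 fold change was 0.41 and still did not pass (adjusted p = 0.0765, edgeR). KO mouse 1 was also the library with adipocyte transcripts, with *Plin1* at 4.24 CPM, *Adipoq* at 2.67 CPM and *Lep* at 0.297 CPM, against at most 0.130 CPM of each in the other 5 mice. Their part in the *Gpt2* values was not tested.

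*Got1*, the cytosolic aspartate aminotransferase, varied the most between mice within both groups. It had 286, 536 and 356 CPM in WT mice 1 to 3 and 303, 496 and 193 CPM in KO mice 1 to 3. The groups overlapped widely, with mouse 2 the highest of each, and KO mouse 3 the lowest of all 6. The highest value was 1.87 times the lowest in WT and 2.57 times in KO. The log2 fold change was -0.25 (SE 0.36, 95% interval -1.07 to 0.58, adjusted p = 0.639, edgeR), between means of 393 ± 129 and 331 ± 153 CPM (SD, n = 3 each). That interval, from 0.476-fold to 1.49-fold, is the widest of the 4 genes. Its sign rested on single mice, at 0.04 without WT mouse 2 and 0.01 without KO mouse 3.

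*Got2* had 486, 560 and 560 CPM in WT mice 1 to 3 and 855, 990 and 737 CPM in KO mice 1 to 3. All KO mice were above all WT mice, and the gap between the lowest KO and the highest WT mouse was larger than the spread within WT. The means were 535 ± 43.0 and 860 ± 126 CPM (SD, n = 3 each), and the log2 fold change was 0.68 (SE 0.17, 95% interval 0.30 to 1.07, or 1.23-fold to 2.10-fold, adjusted p = 0.0190, edgeR). The call was also made by limma-voom (adjusted p = 0.0153) and DESeq2 (adjusted p = 0.000171).

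**Figure D1:**
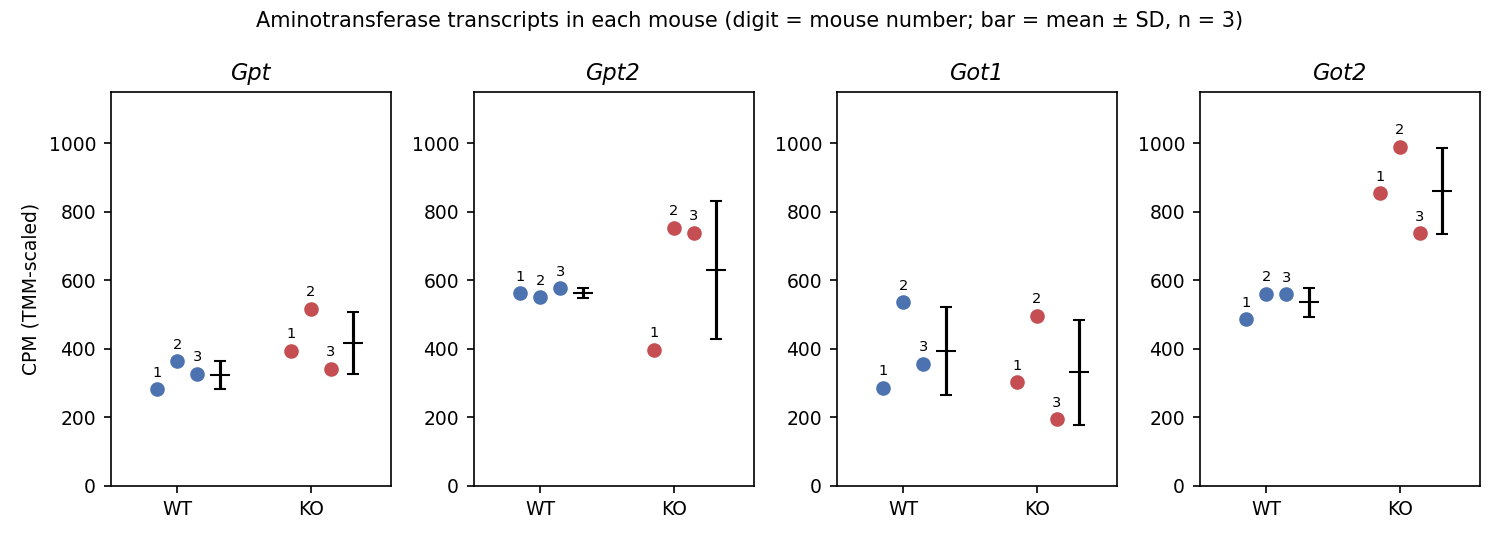
CPM (linear axis from 0, TMM-scaled) of each gene in each of 6 mice, with the mouse number above each point and the mean ± SD of 3 mice beside each group. *Got2* separates the groups, at 486 to 560 CPM in WT and 737 to 990 CPM in KO, while the other genes overlap and *Gpt2* is spread from 397 to 753 CPM in KO against 550 to 577 CPM in WT.

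The *Got2* call was not stable. With 1 mouse fewer, the log2 fold change stayed between 0.57 and 0.76, but edgeR's adjusted p rose to 0.0821 without WT mouse 1, 0.0663 without WT mouse 2, 0.0699 without WT mouse 3 and 0.0585 without KO mouse 2. It was 0.0228 without KO mouse 1 and 0.00727 without KO mouse 3. Calls over all genes fell in the same fits, from 4663 to 2699, 2547 and 2426 without WT mouse 1, 2 and 3. They were 3023 without KO mouse 2, 4828 without KO mouse 1 and 5597 without KO mouse 3. The *Got2* value depended more strongly on how libraries were scaled. Raw library size in place of TMM gave a log2 fold change of 0.25 (adjusted p = 0.145, edgeR), and ERCC spike-in RNA gave -0.08 (adjusted p = 0.892, edgeR). The ERCC share of counts itself varied widely between the KO mice, as given above.

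The scaling moved all genes together. The median log2 fold change over all genes tested was 0.03 with TMM, -0.40 with raw library size and -0.69 with ERCC scaling, a shift that carried *Gpt* and *Gpt2* below 0 as well. *Got1* went to -0.71 (adjusted p = 0.103, edgeR) and -1.09 (adjusted p = 0.0629, edgeR) under the latter scalings. Relative to that median, *Got2* stood at 0.66, 0.65 and 0.61 under these 3 scalings, *Gpt* at 0.34, 0.33 and 0.29, *Gpt2* at 0.13, 0.15 and 0.23, and *Got1* at -0.27, -0.31 and -0.40. The order of the 4 genes in genotype difference was *Got2*, *Gpt*, *Gpt2* and *Got1* under each of these scalings, relative to the median gene. A scaling moves all genes nearly together, so this order could hardly change and the scalings do not test it. With a mouse left out it was less clear. *Gpt* and *Gpt2* both stood at 0.41 without KO mouse 1, and *Gpt2* and *Got1* both at 0.02 without KO mouse 3. Of the genes called, 43.1% were higher in KO with TMM, 9.87% with raw library size, 32.5% with upper-quartile scaling and 3.73% with ERCC scaling.

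**Figure D2:**
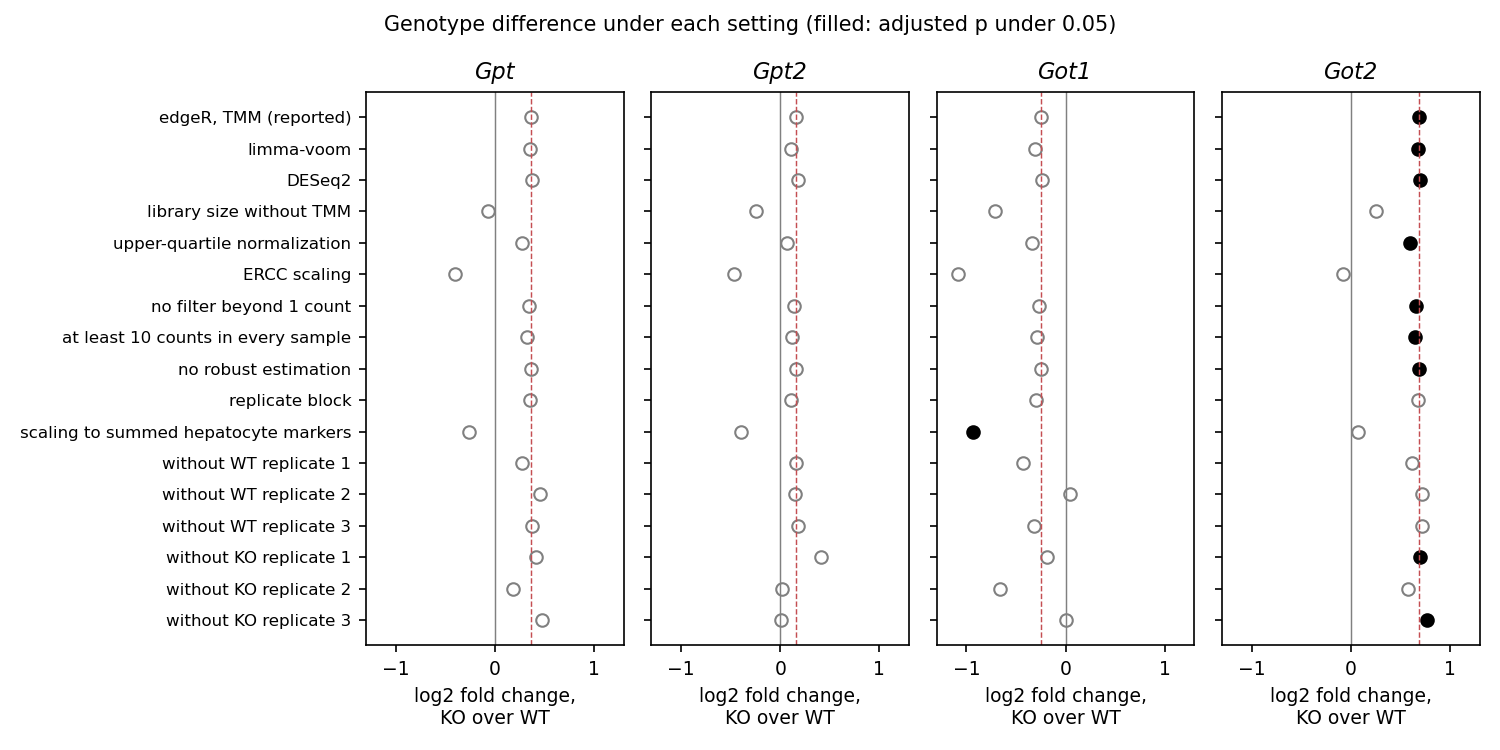
Log2 fold change (KO over WT) of each gene, on the horizontal axis, under the reported setting and 16 alternatives, with filled points where the adjusted p was under 0.05 and a dashed line at the reported value. *Got2* runs from -0.08 with ERCC scaling to 0.76 without KO mouse 3, and the only other filled point is *Got1* when scaled to hepatocyte markers (-0.93, adjusted p = 0.0270).

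Levels of different genes were compared per kilobase of the longest coding transcript. In WT livers the means were 212 ± 17.0 CPM per kb for *Got2*, 191 ± 62.5 for *Got1*, 181 ± 22.7 for *Gpt* and 155 ± 3.68 for *Gpt2* (SD, n = 3 each). Neighbours in this order overlapped between mice, and only the step from *Got2* (192 to 222) to *Gpt2* (151 to 159) left no overlap. In KO livers the means were 340 CPM per kb for *Got2* (338, 391 and 291 in mice 1 to 3), and 233 ± 50.1 for *Gpt*, 173 ± 55.4 for *Gpt2* and 161 ± 74.5 for *Got1* (SD, n = 3 each). There, *Got2* was above *Gpt* (191 to 288) in all mice, and the lower 3 overlapped. *Got2* had the highest level of the 4 in 5 of the 6 mice, the exception being WT mouse 2, in which *Got1* was first. This order depends on the length used. Per kilobase of all exons merged, the WT means were 155 ± 50.7 for *Got1*, 111 ± 8.91 for *Got2*, 110 ± 13.8 for *Gpt* and 99.7 ± 2.37 for *Gpt2* (SD, n = 3 each). All 4 belonged to the abundant liver transcripts, with *Got2* at rank 264, *Gpt* at rank 370, *Got1* at rank 432 and *Gpt2* at rank 467 of 16058 genes by mean CPM per kb.

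Ratios between paired genes within a mouse do not depend on how libraries were scaled. The ratio of *Got2* to *Got1* counts, mitochondrial over cytosolic aspartate aminotransferase, was 1.70, 1.05 and 1.57 in WT mice 1 to 3 and 2.82, 1.99 and 3.81 in KO mice 1 to 3. Every KO mouse was above every WT mouse. *Got2* alone also separated the groups, as did 46.9% of all genes tested, and *Got1* did not pass. The share of gene pairs whose ratio separates the groups was not computed. On the log2 scale the means were 0.49 ± 0.37 and 1.47 ± 0.47 (SD, n = 3 each), a difference of 0.98. An exact permutation test with 20 ways to divide the mice gave p = 0.1, two-sided, the smallest p this design allows. Across mice left out in turn the difference ranged from 0.75 to 1.22.

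For the alanine aminotransferases, the ratio of *Gpt2* to *Gpt* counts was 1.99, 1.52 and 1.77 in WT mice 1 to 3 and 1.01, 1.46 and 2.16 in KO mice 1 to 3. KO mouse 1 had the lowest and KO mouse 3 the highest ratio of all, and all WT mice lay between KO mice 2 and 3. The difference in mean log2 ratio was -0.25 (exact permutation test, two-sided, p = 0.6). For each enzyme class, the summed transcripts overlapped between the groups. The sum of *Gpt* and *Gpt2* was 335 ± 21.6 CPM per kb in WT and 406 ± 83.9 in KO (SD, n = 3 each, 1.21-fold, exact permutation test, two-sided, p = 0.3). The sum of *Got1* and *Got2* was 402 ± 75.7 in WT and 501 ± 124 in KO (SD, n = 3 each, 1.24-fold, exact permutation test, two-sided, p = 0.4). The log2 ratio of these sums, alanine over aspartate aminotransferase, was -0.25 ± 0.18 in WT and -0.29 ± 0.30 in KO (SD, n = 3 each, exact permutation test, two-sided, p = 0.9). None of these exact permutation tests could give a p below 0.1 with 3 mice a group.

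**Figure D3:**
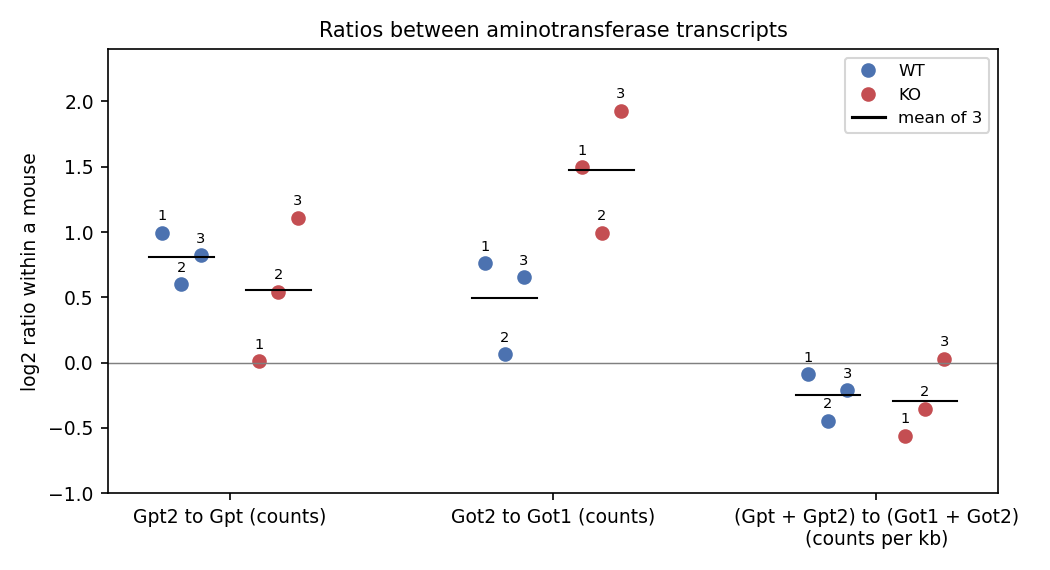
Log2 ratio within each mouse (vertical axis) of *Gpt2* to *Gpt*, *Got2* to *Got1*, and the summed alanine to the summed aspartate aminotransferase transcripts, with the mouse number above each point and a line at the mean of 3. The groups are apart only for *Got2* to *Got1*, with WT at 0.07 to 0.76 and every KO mouse higher, up to 1.93.

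*Got2* and *Got1* work in the malate-aspartate shuttle with 2 malate dehydrogenases and 3 carriers. Of these 5 partners, 3 rose in KO livers, 0 fell and 2 did not pass, with a median log2 fold change of 0.42, against 0.03 over all genes tested. Over all genes tested, 12.5% were called higher in KO and 16.5% lower, the shares to set beside this list and those below. *Slc25a13*, the aspartate-glutamate carrier citrin of liver, had 116, 149 and 139 CPM in WT and 226, 277 and 240 CPM in KO mice 1 to 3, with every KO mouse above every WT mouse (log2 fold change 0.88, SE 0.15, adjusted p = 0.00465, edgeR). *Mdh1*, the cytosolic malate dehydrogenase, had 306, 357 and 361 CPM in WT and 691, 630 and 424 CPM in KO (0.77, SE 0.20, adjusted p = 0.0249, edgeR). The malate carrier *Slc25a11* rose by less, at a log2 fold change of 0.42 (SE 0.13, adjusted p = 0.0456, edgeR). The mitochondrial malate dehydrogenase *Mdh2* (0.10, SE 0.14) and the other aspartate-glutamate carrier *Slc25a12* (0.11, SE 0.12) did not pass. The count of 3 fell to 1 without WT mouse 1, 2 or 3 or KO mouse 2, to 2 without KO mouse 1, to 1 with raw library size and to 0 with ERCC scaling.

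The other aminotransferases were counted as the relatives of these enzymes in amino acid metabolism. Of 13 tested, 6 rose, 1 fell and 6 did not pass, with a median log2 fold change of 0.43; *Bcat1* and *Got1l1* were too low to be tested. *Oat*, which converts ornithine to a precursor of proline and glutamate, rose the most, from 132, 209 and 183 CPM in WT to 722, 1366 and 393 CPM in KO mice 1 to 3 (2.24, SE 0.43, adjusted p = 0.00772, edgeR). All KO mice were above all WT mice, though KO mouse 2 had over 3 times the level of KO mouse 3. *Aadat* of lysine and kynurenine breakdown (0.95, SE 0.19) and *Abat*, the GABA transaminase (0.90, SE 0.21), rose by smaller amounts. *Agxt2*, a mitochondrial enzyme that uses alanine as an amino donor, had a log2 fold change of 0.66 (SE 0.16), *Kyat3* 0.61 (SE 0.19) and *Phykpl* 0.45 (SE 0.13), with adjusted p of 0.0172 to 0.0414 (edgeR).

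*Psat1*, the aminotransferase of serine synthesis, fell, with 8.71, 9.63 and 7.72 CPM in WT and 3.95, 2.53 and 4.13 CPM in KO mice 1 to 3 (-1.29, SE 0.23, adjusted p = 0.00556, edgeR). *Tat*, which begins tyrosine breakdown, had 1355, 1661 and 1001 CPM in WT and 676, 1039 and 825 CPM in KO, and did not pass (-0.66, SE 0.24, adjusted p = 0.0718, edgeR). *Agxt*, the liver alanine-glyoxylate aminotransferase (0.29, SE 0.37), and *Bcat2* of branched-chain amino acids (0.17, SE 0.18) did not pass either. Of the other aminotransferases, 2 were called higher without WT mouse 1 or WT mouse 3, 4 without WT mouse 2 or KO mouse 2, 5 without KO mouse 1 and 6 without KO mouse 3, with 1 lower each time. Raw library size gave 2 higher and 4 lower, and ERCC scaling 1 higher and 3 lower.

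**Figure D4:**
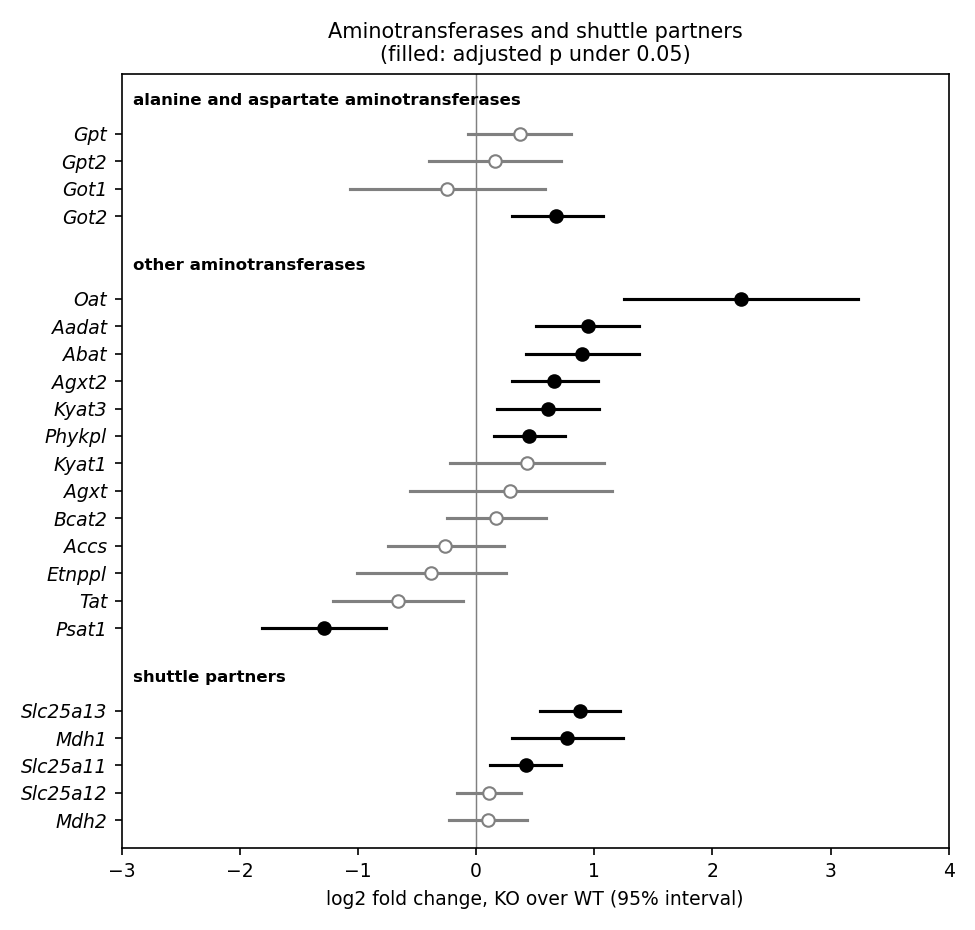
Log2 fold change (KO over WT, horizontal axis) with its 95% interval for the 4 alanine and aspartate aminotransferases, 13 other aminotransferases and 5 shuttle partners, filled where the adjusted p was under 0.05. *Got2* (0.68) lies among the genes that rose, well below *Oat* (2.24), and *Psat1* (-1.29) is the 1 filled point on the left.

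Pyruvate is the product of alanine aminotransferase. Of 10 pyruvate carriers and pyruvate-using enzymes, 6 rose, 0 fell and 4 did not pass (median log2 fold change 0.67). *Pklr*, the liver pyruvate kinase that makes pyruvate in glycolysis, rose from 169, 135 and 116 CPM to 386, 511 and 598 CPM (1.83, SE 0.22, adjusted p = 0.00140, edgeR). *Pcx*, pyruvate carboxylase, rose from 356, 410 and 405 CPM to 689, 935 and 746 CPM (1.02, SE 0.17, adjusted p = 0.00443, edgeR). For both enzymes, every KO mouse was above every WT mouse. *Ldha* (0.75, SE 0.21), *Pdha1* (0.69, SE 0.13), *Pdhb* (0.67, SE 0.14) and the mitochondrial pyruvate carrier subunit *Mpc1* (0.67, SE 0.18) rose as well. The count of 6 fell to 3 without WT mouse 3, to 4 without WT mouse 1, WT mouse 2 or KO mouse 2, to 2 with raw library size and to 1 with ERCC scaling, and 1 gene was called lower without KO mouse 1.

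Among 6 gluconeogenic enzymes downstream of alanine, 2 rose, 1 fell and 3 did not pass (median 0.04). The risers were *Pcx* and the glucose-6-phosphate carrier *Slc37a4* (0.63, SE 0.19). The mitochondrial phosphoenolpyruvate carboxykinase *Pck2* fell, from 28.0, 34.2 and 31.5 CPM to 7.68, 10.3 and 15.8 CPM (-1.47, SE 0.24, adjusted p = 0.00435, edgeR). The far more abundant cytosolic form *Pck1* did not pass, with 2772, 3576 and 2500 CPM in WT and 2156, 3633 and 2586 CPM in KO (-0.08, SE 0.25). The count of 2 risers fell to 1 without WT mouse 1, WT mouse 3, KO mouse 1 or KO mouse 2 and with raw library size, and to 0 with ERCC scaling.

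Around glutamate, which both enzymes make or use, 2 of the 10 tested enzymes rose, 1 fell and 7 did not pass (median 0.42). *Glul*, glutamine synthetase, rose from 381, 669 and 409 CPM to 1962, 2502 and 1403 CPM (2.01, SE 0.30, adjusted p = 0.00284, edgeR), and *Oat* is the other. *Aldh18a1*, which makes the proline precursor from glutamate, fell (-1.33, SE 0.27). The count of risers was 3 without KO mouse 1 and 4 without KO mouse 3. It also depended on the test, at 4 with limma-voom, 6 with DESeq2 and 1 with edgeR and no filter beyond 1 count. *Glud1*, the glutamate dehydrogenase that works in sequence with the aminotransferases, did not pass, at 0.46 on the log2 scale (SE 0.16, adjusted p = 0.0575, edgeR). Of 13 aspartate and asparagine enzymes, 2 rose, 1 fell and 10 did not pass (median 0.39). *Aspg*, an asparaginase that releases aspartate (0.84, SE 0.23), and *Acy3* (0.80, SE 0.21) rose, and *Asns*, which makes asparagine from aspartate, fell (-1.47, SE 0.44, adjusted p = 0.0362, edgeR). The urea cycle enzyme *Ass1*, which joins aspartate to citrulline, had 0.12 (SE 0.28). Of this list, 0 genes were called higher without WT mouse 1, WT mouse 3 or KO mouse 2 and with raw library size or ERCC scaling, 1 without WT mouse 2, and 4 without KO mouse 3. The lower call was lost without WT mouse 1, 2 or 3.

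Of 12 tested genes in a list of amino acid transporters, compiled for alanine, aspartate, glutamate and glutamine, 2 rose, 1 fell and 9 did not pass (median 0.21). *Slc1a2*, a glutamate and aspartate importer, rose from 30.5, 64.7 and 48.2 CPM to 205, 212 and 149 CPM (1.98, SE 0.27, adjusted p = 0.00242, edgeR), and *Slc25a44*, known as the mitochondrial carrier of branched-chain amino acids and not of those 4, by 0.66 (SE 0.16). *Slc1a5*, a carrier of neutral amino acids, fell (-1.07, SE 0.13, adjusted p = 0.00141, edgeR). *Slc38a2* (-0.07, SE 0.27) and *Slc38a4* (0.39, SE 0.18), which import alanine, did not pass. The count of 2 risers was 1 without WT mouse 1, WT mouse 2 or KO mouse 2, 4 without KO mouse 3, 1 with raw library size and 0 with ERCC scaling, and the count lower was 2 without KO mouse 1 or KO mouse 2 and 3 under either of those scalings. Of 4 tested genes for the supply of pyridoxal phosphate, the cofactor of every aminotransferase, 1 rose and 3 did not pass (median 0.41). That gene was *Plpbp*, which binds the cofactor (0.69, SE 0.11, adjusted p = 0.00374, edgeR). The list had 2 risers without WT mouse 2 or KO mouse 3, and 0 with raw library size or ERCC scaling.

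ALT and AST are read in serum beside other liver enzymes, and 8 of these were counted. Of them, 3 rose, 1 fell and 4 did not pass (median 0.66). Sorbitol dehydrogenase *Sord* rose from 748, 953 and 961 CPM to 1802, 2047 and 1719 CPM (1.06, SE 0.18, adjusted p = 0.00443, edgeR), and *Ldha* and the urea cycle enzyme *Otc* (0.74, SE 0.22) also rose. *Ggt1*, gamma-glutamyltransferase, fell (-2.45, SE 0.47, adjusted p = 0.00720, edgeR) at a low level, from 2.03, 3.35 and 2.09 CPM to 0.764, 0.354 and 0.236 CPM. Alkaline phosphatase *Alpl* did not pass (-0.15, SE 0.34). The count of 3 risers fell to 1 without WT mouse 1, 2 or 3 or KO mouse 2 and with raw library size, and to 0 with ERCC scaling or scaling to hepatocyte markers.

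Of 14 regulators that have been linked to aminotransferase transcription, 6 rose, 0 fell and 8 did not pass (median 0.37). Among the risers were the fatty acid sensor *Ppara* (1.10, SE 0.18), the hepatocyte factor *Cebpa* (0.72, SE 0.15) and the glucagon receptor *Gcgr* (0.68, SE 0.15). *Atf4*, the factor of the amino acid response, had 0.23 (SE 0.13, adjusted p = 0.230, edgeR), and the glucocorticoid receptor *Nr3c1* 0.25 (SE 0.12, adjusted p = 0.146, edgeR). The count of 6 fell to 2 without WT mouse 2 and to 4 without WT mouse 3. With raw library size 2 of the regulators were called higher and 2 lower, and with ERCC scaling 0 were called.

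Markers of cell types moved with the genotype, and their levels are given beside the *Got2* difference. The 7 hepatocyte markers tested summed to 52570 to 64313 CPM in WT and 66005 to 99045 CPM in KO, with 3 called higher, 0 lower and a median of 0.69. Those 3 calls fell to 0 without WT mouse 1, 2 or 3 or KO mouse 2 and with raw library size or ERCC scaling, to 1 without KO mouse 1, and rose to 6 without KO mouse 3. When counts were scaled to the sum of these markers, the log2 fold change of *Got2* was 0.07 (adjusted p = 0.788, edgeR) and that of *Got1* -0.93 (adjusted p = 0.0270, edgeR), while the median over all genes was -0.56. Under that scaling, the shuttle, gluconeogenic, aspartate and asparagine, pyridoxal phosphate and regulator lists had 0 risers. The pyruvate, other aminotransferase and transporter lists had 1 each, and the glutamate list 2. Called lower were 3 each of the other aminotransferases, transporters, glutamate enzymes and aspartate and asparagine enzymes. So were 2 regulators and 1 each of the gluconeogenic and serum enzymes. With TMM scaling, pericentral hepatocyte markers, which include *Glul*, *Oat* and *Slc1a2* of the lists above, rose in 5 of 7. They summed to 1950 to 3323 CPM in WT and 7389 to 11273 CPM in KO. Periportal markers rose in 1 of 7, with 8035 to 10276 CPM in WT and 8253 to 12166 CPM in KO. That 1 call was lost without WT mouse 1 or 2.

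Non-parenchymal marker lists differed in direction and size. Only the cholangiocyte median was further from 0 than the median of the pericentral hepatocyte markers (1.82). The medians were -1.19 for lymphocyte, -0.60 for stellate cell and fibroblast, -0.02 for macrophage and 0.48 for endothelial markers. All 5 cholangiocyte markers fell (median -2.97, 951 to 1181 CPM in WT and 128 to 245 CPM in KO). Of 8 stellate cell and fibroblast markers, 4 fell and 1 rose (1217 to 1301 CPM in WT and 328 to 818 CPM in KO), and of 7 lymphocyte markers 4 fell (39.8 to 59.1 CPM and 17.3 to 24.4 CPM). The stellate count of 4 fell to 2 without WT mouse 2, WT mouse 3 or KO mouse 2, and was 6 with raw library size. Macrophage markers were split, with 3 of 8 higher and 3 lower (222 to 351 CPM and 359 to 441 CPM), and of 6 endothelial markers 2 rose (160 to 185 CPM and 227 to 266 CPM). Without KO mouse 1, 4 endothelial markers were called higher. Of 4 adipocyte markers, 1 was tested and did not pass (*Cidec*, which fatty hepatocytes also express). The summed level of the list, 108 to 135 CPM in WT and 110 to 358 CPM in KO, was nearly all *Cidec*. The more specific *Plin1*, *Adipoq* and *Lep* were highest in KO mouse 1, as given with *Gpt2*. Skeletal muscle and exocrine pancreas, which also make these aminotransferases, left almost no trace. Skeletal muscle markers summed to 3.13 to 5.47 CPM in all mice, with 2 of 6 tested and 0 called and *Myh1* at 0 counts, and exocrine pancreas markers to 0.226 to 0.849 CPM, with 0 of 5 tested. The part of these cell types in the *Got2* difference was not tested. Scaling to hepatocyte markers is no such test, because it shifts all genes nearly together. Relative to the median gene, *Got2* stood at 0.63 under that scaling and at 0.66 with TMM.

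The genes whose levels ran closest to each aminotransferase over the 6 mice were found by the root mean square difference of centred log2 CPM, among 12600 genes. For *Got2* these were *F12* (0.0341), *St6galnac6* (0.0394) and *Pgk1* (0.0395). Their own genotype differences, 0.72, 0.68 and 0.69 on the log2 scale, are part of that likeness. For *Gpt* the nearest were *Tmem134* (0.0330), *Spr* (0.0362) and *Atp5b* (0.0471). For *Gpt2* they were *Nhlrc2* (0.0865), *Ephx1* (0.0930) and *St5* (0.108), which were likewise lowest in KO mouse 1. For *Got1* the distances were the widest, with *Brca1* (0.130), *Spns2* (0.211) and *Cenpm* (0.233) as the nearest genes. These are descriptions over 6 points that share genotype and library scaling.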

How the data were processed

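Liver RNA of 3 WT (SHMT2 fl/fl) and 3 KO (SHMT2 HKO) mice was extracted, made into libraries and sequenced as read pairs by the authors. Per the labels' processing notes, Trimmomatic 0.36, STAR 2.5.2b and featureCounts of Subread 1.5.2 were used with GRCm38, and the study's methods add that reads were aligned together with the ERCC sequences and that unique hits per gene were counted. The values the authors deposited are these raw counts, with no normalization. The use of strand is not given in the sources used here, so reads of a gene and of its opposite strand may not be told apart.

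Samples were grouped by their genotype labels, which number the mice, and p-values judge the group difference against the spread between these mice. The 92 ERCC rows stayed out of library sizes, and 259 gene IDs without an annotation held 0.0116% of gene counts. The tests used edgeR 4.0.16 in R 4.3.3, with the filterByExpr filter, TMM scaling and the robust quasi-likelihood F test, two-sided, and Benjamini-Hochberg adjustment over 16089 genes. SE and 95% intervals were derived from the log2 fold change and F value of that fit, and CPM use TMM-scaled library sizes. The study's methods name limma-voom, which was kept as an alternative (limma 3.58.1). DESeq2 1.42.0, other scalings and filters, a replicate block and leaving out each mouse were the others. Scaling to hepatocyte markers and the merged exon length were chosen after seeing the data. Depth was 23090837 to 34089722 counts per library. The intervals are for the log2 fold change between the groups, judged against the spread between mice.

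The members and the 21 gene lists, compiled by hand (169 of 171 entries matched), were chosen with earlier results of these data known. A list is described by its counts of calls and its median, with no set test. The genes named are the 4 members, *Shmt2*, the called list genes with the 4 largest differences in each pathway list, genes tied to a member by their role, genes that overlap a member or share its symbol stem, and the 3 nearest profiles of each member. Of the genes this rule names, 1 is not reported here. The edgeR fit was first tested on simulated counts. It called 55 of 100 genes changed 2-fold and 87 of 100 changed 4-fold, and 6.58% of its calls were false. A 2-fold change could thus be missed. The other fits and the permutation tests were not tested in this way.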

Additional observations from a re-analysis of the deposited data

How the results depend on the processing

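Each member was refitted under 16 alternatives, 1 of them (scaling to summed hepatocyte markers) chosen after seeing the data. Limma-voom, DESeq2, upper-quartile scaling, both other filters and dispersions without robust estimation changed no direction and no call of the 4 genes. Raw library size gave log2 fold changes of -0.0722 for *Gpt*, -0.25 for *Gpt2* and 0.25 for *Got2*, ERCC scaling -0.40, -0.46 and -0.0788, and hepatocyte markers -0.26, -0.39 and 0.0681, with *Got1* at -0.71, -1.09 and -0.93. These scalings shift all genes, as their medians show. Leaving out each mouse gave 0.19 to 0.47 for *Gpt*, 0.01 to 0.41 for *Gpt2*, -0.66 to 0.0419 for *Got1* (0.0419 without WT mouse 2 and 0.0079 without KO mouse 3) and 0.57 to 0.76 for *Got2*. *Shmt2* stayed between -2.82 and -1.92 and was called in all fits. The log2 *Gpt2* to *Gpt* ratio ranged from -0.528 to 0.022 (without KO mouse 1), that of *Got2* to *Got1* from 0.75 to 1.22, and that of alanine to aspartate aminotransferase from -0.208 to 0.0875 (without KO mouse 1; 0.0343 without WT mouse 1), or 0.0528 with merged exon lengths.

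The replicate numbers did not pair the mice (correlations of same-numbered deviations -0.05, 0.01 and -0.08). With the replicate block, 3584 genes were called and *Got2* had 0.68 (adjusted p = 0.0521, edgeR). Of all genes, 2866 were called with ERCC scaling and 2426 to 5597 with a mouse left out, against 4663. Why the calls of single genes changed was not tested. Over the lists, 535 of the recomputed counts stayed within 1.5 times the reported count, 50 were larger and 87 smaller. The 535 include every count that was 0 both times, also for exocrine pancreas markers, of which 0 were tested. They are therefore no measure of how stable the other counts were. Every member had at least 4912 counts in each library.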
